A study of Mus musculus with 6 samples.

Results

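The genes described here encode collagens, laminins, nidogens, fibulins, fibrillins, the Adamts proteases that cut matrix and the Timps that inhibit matrix proteases. They were chosen by symbol alone, as every listed gene whose symbol begins with a collagen, laminin, fibulin or Adamts stem and number, together with Nid1, Nid2, Fbn1, Fbn2 and Timp1 to Timp4. The rule took 80 of the 16411 genes in the table of cells. A single member, Col4a3bp, shares only the stem of its name: it encodes a ceramide transporter and is not a matrix gene. The cells came from the hypothalamus of male ob/ob mice, which lack leptin and are obese and diabetic. Each mouse was 11 weeks old, received 3 µg of FGF1 R50E, a mutant form of fibroblast growth factor 1, into a cerebral ventricle, and was killed on day 5. The labels name 6 samples of 1 mouse each, and cells of 4 of them (mice 3, 4, 30 and 34) were in the table. The samples of mice 12 and 37 were not analysed here. All 4 mice had the same strain and treatment and no labelled control group was used, so each comparison below is between cell types of the same mice and says nothing about the effect of FGF1 R50E.

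A basement membrane is a thin sheet of matrix that underlies endothelium and epithelium and wraps nerve, muscle and glia where they meet connective tissue. It is built on a laminin network assembled from an alpha, a beta and a gamma chain and on a type IV collagen network, which nidogens and the proteoglycan perlecan tie together. In the brain such sheets surround the blood vessels and lie beneath the meninges, where fibroblast-like cells also lay down fibrillar collagens, while the brain tissue between the vessels holds little fibrillar matrix.

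Per mouse, the libraries held between 3005 and 7386 cells, between 3299971 and 8856079 UMIs (unique molecular identifiers, each a counted RNA molecule) and a median of between 909 and 1066 UMIs per cell, and 194 cell barcodes occurred in 2 or more libraries. UMIs were summed per mouse and per cell type as labelled by the authors. Sums of 8 types were compared over the 4 mice, with totals between 44756 UMIs (microglia of mouse 4, 34 cells) and 2319177 UMIs (oligodendrocytes of mouse 3). Levels are given as CPM (the UMIs of a gene in parts per 1000000 UMIs of the sum), in the order of mice 3, 4, 30 and 34. The UMIs were counted at the 3' end of each molecule and were not divided by gene length. A lower level in a summed sample can mean fewer cells of a subtype or less RNA per cell, and these cannot be told apart. Every fixed marker list of a labelled type was highest in that type, and the mural list (pericytes and smooth muscle cells, which had no label of their own) was highest in the endothelial label, at between 3814 and 4101 CPM per mouse, so the endothelial label held both vascular cell types. Astrocyte markers read between 878 and 4420 CPM in the other types, against between 9983 and 10703 CPM in astrocytes.

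The summed level of the members was highest in the vascular leptomeningeal cells (VLMC, the fibroblast-like cells of the meninges and large vessels). Together the 80 members had 36695 of the 23971102 UMIs, 73 of them had at least 1 UMI, and the other 7 were listed at 0 in every cell. A filter by the authors may have set low genes to 0, so no upper limit is given for these. The summed level of all members was 7599 CPM in the VLMC pooled over mice. It was 2658 ± 613 CPM in the endothelial label, 1950 ± 159 in tanycytes, 1698 ± 192 in ependymal cells, 1629 ± 141 in committed oligodendrocyte precursors, 1621 ± 40.9 in astrocytes, 1387 ± 56.2 in oligodendrocyte precursor cells, 857 ± 244 in microglia and 629 ± 52.6 in oligodendrocytes (mean ± SD, n = 4 mice each). The endothelial label and tanycytes overlapped (in mouse 4 they were at 2084 and 2184 CPM), and the levels of neighbours from ependymal cells to astrocytes lay within their spread over mice. Of the 73 members with UMIs, 36 had their highest level in VLMC, where 12.5% of all genes with UMIs did. The committed precursors had 11, near the share of all genes (13.9%), the endothelial label 8 (10.1% of all genes), ependymal cells 7 (16.1%), tanycytes 6 (5.53%), oligodendrocyte precursor cells 4 (16.3%) and microglia 1 (11.7%). No member was highest in astrocytes (7.64%) or oligodendrocytes (6.26%). Without the VLMC, 26 members were highest in the endothelial label, where 12.8% of all genes were.

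**Figure D1:**
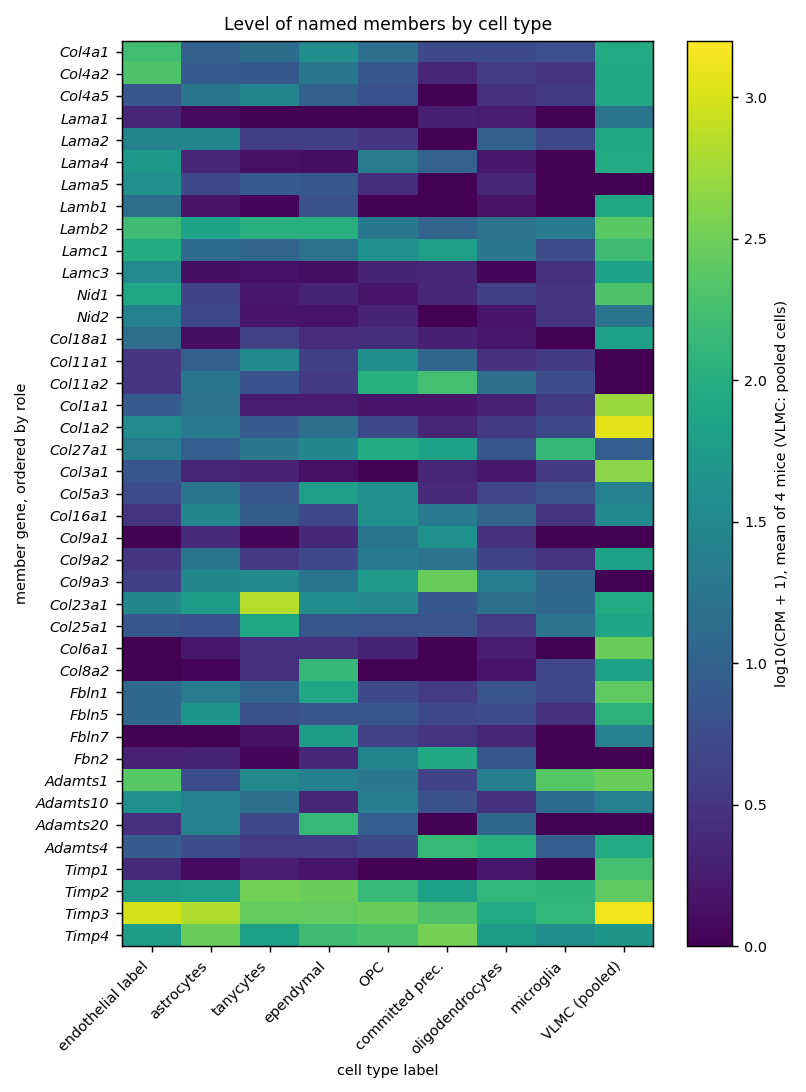
Level of named members (rows, by role) in each cell type (columns), as mean CPM over 4 mice, or CPM of the pooled cells for VLMC, on a log colour scale. Brighter cells are higher. Col4a1, Col4a2 and Nid1 are brightest in the endothelial and VLMC columns, Col23a1 in tanycytes, Col8a2 in ependymal cells, and Col9a3 and Col11a2 in committed precursors.

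The most abundant member was a protease inhibitor in 6 of the 8 types. The Timps made up between 34.0% (microglia) and 62.9% (astrocytes) of the summed level of members. Timp3, the Timp that binds to matrix, read 899, 750, 1389 and 958 CPM in the endothelial label and 634, 668, 708 and 601 CPM in astrocytes. The lowest endothelial value was above the highest astrocyte value, with a log2 difference of 0.58 in the fit, below the limit of 1 used for calls. Timp4 was high in committed precursors (336 ± 58.8 CPM) and astrocytes (306 ± 33.1 CPM), whose mice overlapped. Timp2 was high in tanycytes (333 ± 22.9 CPM) and ependymal cells (304 ± 25.5 CPM), which overlapped as well. Timp1, the inducible member of the family, stayed at or below 1.38 CPM on average in each of the 8 types. Among the 38 members that reached 20 CPM in any of the 8 types, 25 were higher in every mouse of the highest type than in any mouse of the next, where 35.3% of all genes at that level were. The other 13 overlapped.

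The first comparison set the endothelial label against astrocytes, whose endfeet lie on the opposite face of the vascular basement membrane. The chains of the vascular basement membrane were higher in the endothelial label: both main type IV collagens, 5 laminin chains and a nidogen. Timp4, Fbln5, 3 of the 4 tested fibril-associated collagens and 4 of the 6 tested fibril-forming collagens were lower, while the fibril-forming Col27a1 was called higher. Of the 80 members, 35 passed the filter on low counts. Of these, 11 were called higher and 12 lower in the endothelial label (at an adjusted p under 0.05, with a log2 fold change beyond 1 either way), where 15.7% of the 10166 genes tested were called higher and 16.8% lower. The median log2 fold change was -0.21 over the tested members and -0.03 over all genes tested. Since the types were labelled on the same counts, all such calls are descriptive.

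Col4a1 and Col4a2 encode the chains of the ubiquitous type IV collagen trimer, the network of every basement membrane. Their annotated starts in GRCm38.p6 lie 21 bases apart on opposite strands of chromosome 8 (11312826 for Col4a1, minus strand, and 11312805 for Col4a2, plus strand), so that the bases upstream of each lie in the other gene. Col4a2 read 176, 143, 288 and 193 CPM in the endothelial label against a mean of 7.52 CPM in astrocytes, a log2 fold change of 4.77 (SE 0.22, edgeR adjusted p = 1.07e-29). Col4a1 read 146, 99.6, 250.5 and 168 CPM against a mean of 8.64 CPM, with a log2 fold change of 4.15 (SE 0.22). In both genes the 4 mice kept the same order, highest in mouse 30 and lowest in mouse 4, and every endothelial value was above every astrocyte value. Col4a5, a chain of a different trimer, went the other way: 6.08 CPM in the endothelial label against 16.8 CPM in astrocytes (log2 fold change -1.24, SE 0.44), a call that was lost without mouse 4 (-0.93, edgeR adjusted p = 0.078).

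Among laminins, 5 of the 6 tested chains were higher in the endothelial label and none was lower. Lama4 and Lama5 are the alpha chains of endothelial laminins. Lama4 read 56.5, 52.0, 41.7 and 47.4 CPM (1.36 CPM in astrocytes, log2 fold change 4.95, SE 0.42), and Lama5 read 46.2, 26.0, 53.1 and 34.3 CPM (3.94 CPM in astrocytes, log2 fold change 3.32, SE 0.40). The gamma chain Lamc1 was at 95.1 ± 43.0 CPM against 12.2 ± 3.17 CPM in astrocytes (log2 fold change 2.97), and the rarer gamma chain Lamc3 at 33.6 ± 8.13 CPM against 0.363 CPM (5.66). Lamb2, a beta chain of vascular laminins, had the smallest difference of these, at 161 ± 21.1 CPM in the endothelial label and 71.3 ± 5.85 CPM in astrocytes (1.24, SE 0.17). Without cells that held UMIs of another vascular type, the Lamb2 log2 fold change was 0.73 (edgeR adjusted p = 0.058), so that call was lost, and that of Lamc1 fell to 1.56 (edgeR adjusted p = 0.011) while that of Lama4 was 5.88. Lama2, the alpha chain of muscle and perivascular laminin, read 28.5 ± 8.36 CPM in astrocytes and 26.3 ± 12.1 CPM in the endothelial label, and was not called. Lama1 and Lamb1 stayed low, at 1.25 and 12.9 CPM in the endothelial label, where each was highest among the 8 types.

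Nid1, which links laminin to type IV collagen, read 87.3, 78.0, 87.3 and 58.9 CPM in the endothelial label and 3.59 CPM in astrocytes (log2 fold change 4.32, SE 0.33). Nid2 was less even, at 12.0, 30.3, 45.5 and 9.81 CPM, with every value above those of astrocytes (mean 4.04 CPM), but did not pass the filter on low counts. Col18a1, a multiplexin of vascular basement membranes, read 12.0, 4.33, 26.6 and 9.81 CPM and was not tested either.

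Adamts1, a secreted protease that cuts the proteoglycans versican and aggrecan, had a log2 fold change close to that of Lamc3, the largest among the tested members. It read 187, 182, 342 and 227 CPM in the endothelial label and 4.80 CPM on average in astrocytes (log2 fold change 5.59, SE 0.32, edgeR adjusted p = 4.83e-25). Microglia reached a like mean, 230 ± 187 CPM, but with 427, 0, 324 and 168 CPM in the 4 mice. The value of 0 came from the sum of 34 cells, in which 3 UMIs would be 67.0 CPM. The 250 bases before its annotated start (RefSeq, GRCm38.p6, chr16:85803114-85803363, minus strand) are shown because it was high in these vascular cells and low in astrocytes. Capitals mark 3 motifs searched on both strands: the GC box, spelled GGGCGG, the TATA box, spelled TATAAA, and the box named for its letters, CCAAT.

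Adamts1: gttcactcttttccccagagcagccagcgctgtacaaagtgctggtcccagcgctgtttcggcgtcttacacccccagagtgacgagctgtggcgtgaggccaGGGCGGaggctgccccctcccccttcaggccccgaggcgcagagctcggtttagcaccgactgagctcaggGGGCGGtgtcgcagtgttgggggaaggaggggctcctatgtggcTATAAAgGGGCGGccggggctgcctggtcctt

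This window holds GC boxes whose first bases lie 147, 76 and 25 bases before the start, and a TATA box 32 bases before it. Of the 80 members, 53 were in the table of promoters, and 36 of them (67.9%) hold a GC box, against 32.7% of all 32851 windows of that length. A CCAAT box is in 20 (37.7%, against 33.8%) and a TATA box in 4 (7.55%, against 12.4%). A member counted if any of its windows held the motif, while the other shares are of single windows, so the shares differ in unit. These are matches of letters, and binding was not measured.

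In the other direction, Timp4 read 325, 278, 278 and 343 CPM in astrocytes and 70.2, 73.7, 37.9 and 36.0 CPM in the endothelial label (log2 fold change -2.56, SE 0.16). Fbln5, which takes part in assembling elastic fibres, read 42.6, 29.6, 72.0 and 44.98 CPM in astrocytes and 10.7 CPM in the endothelial label (-2.38). The fibril-associated collagens Col9a3 (30.6 against 2.87 CPM, log2 fold change -3.69), Col9a2 (15.9 against 2.17 CPM, -3.57) and Col16a1 (28.9 against 2.08 CPM, -3.25) were lower in the endothelial label, as was the protease Adamts20 (24.1 against 1.69 CPM, -3.29). These values are low, with between 2 and 5 endothelial UMIs in all for each of these 4 genes. Col9a2 had a value in only 1 of the 4 fits that left out a mouse, here and in the other comparisons that called it. Col11a1, Col27a1 and Fbln1 were called here as well but lost the call when 1 mouse was left out: Col11a1 (-1.69) without mouse 3, 4 or 34, Col27a1 without mouse 34 and Fbln1 without mouse 3. Col27a1 (21.3 against 8.04 CPM, 1.49) also turned to -5.01 (edgeR adjusted p = 0.143) without cells holding UMIs of another vascular type, and Col11a1 moved to -0.62 (edgeR adjusted p = 0.693). The same step ended the call of Col11a2 (-2.79, then -1.75 with edgeR adjusted p = 0.118), which was also lost in thinned sums (-3.23, edgeR adjusted p = 0.056), and moved Col9a3 to -2.64.

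**Figure D2:**
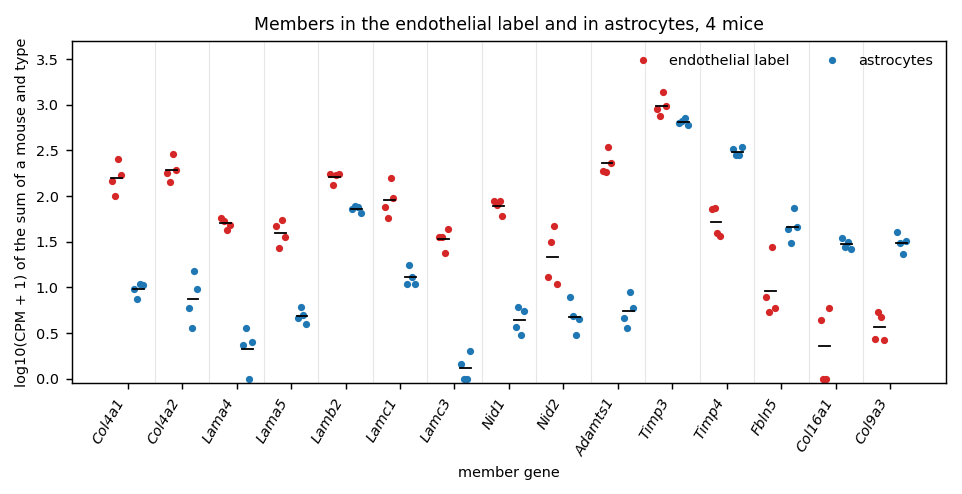
CPM of named members per mouse in the endothelial label and in astrocytes, on a log10(CPM + 1) axis. Points are the 4 mice and the black line their mean on that scale. Col4a1, Col4a2 and Nid1 lie above every astrocyte value in all 4 endothelial sums.

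In the endothelial label, mouse 30 had the highest level of 11 of the 22 members with at least 20 UMIs there, where 29.7% of all such genes were highest in that mouse. VLMC markers read 383 CPM in the endothelial label of mouse 30 and between 134 and 156 CPM in the other mice, and they were highest in mouse 30 in each of the 8 types. The other vascular lists moved less: mural markers stayed between 3814 and 4101 CPM and endothelial markers between 7682 and 8269 CPM. Their part in the levels of members was not tested. Without mouse 30, the comparison called 24 members in place of 23, and Col4a1 and Col4a2 kept their calls.

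Splitting the endothelial label by its markers, a step chosen after seeing the data, separated cells with more mural than endothelial UMIs (76, 36, 40 and 92 cells) from those with more endothelial UMIs. Of the 22 members, 6 were higher in the mural cells in every mouse, where 8.31% of all such genes were, and none was lower in every mouse (9.76%). Lamc3 read 63.5, 84.6, 59.6 and 80.1 CPM in the mural cells and 23.9, 22.5, 14.8 and 30.2 CPM in the endothelial cells, with no overlap. Nid1 read 121 ± 34.8 against 56.9 ± 9.27 CPM and Lamc1 151 ± 59.5 against 80.7 ± 45.9 CPM. The others were Lama5 (56.3 against 36.5 CPM), Timp2 (85.2 against 43.6 CPM) and Col18a1 (40.1 against 6.80 CPM). The type IV collagens did not separate: Col4a1 was at 177 ± 123 and 166 ± 51.9 CPM, and Col4a2 at 211 ± 47.7 and 200 ± 73.9 CPM.

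Among 47 other genes of matrix assembly fixed as a list (collagen processing enzymes, receptors, other basement membrane proteins and matrix metalloproteases), 46 were listed, 32 were tested, 13 were higher and 8 lower in the endothelial label (15.7% and 16.8% of all genes). Perlecan (Hspg2, log2 fold change 5.07), fibronectin (Fn1, 6.63) and the laminin receptor Bcam (4.73) were higher, with the integrin chains Itga1 (3.08), Itgb1 (2.50) and Itga6 (1.55) and the collagen chaperone Serpinh1 (1.33). Smoc1 (-2.86), the collagen receptor Ddr1 (-2.62), the procollagen protease Bmp1 (-2.10) and the membrane protease Mmp14 (-1.64) were lower.

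The VLMC were 68 cells with 124361 UMIs (6, 12, 44 and 6 cells per mouse), too few to sum by mouse, and were described as 1 pooled sample. In it 1 UMI is 8.04 CPM, and intervals are exact 95% Poisson intervals that cover counting error only. Of the 11 fibril-forming collagens, 4 (Col1a1, Col1a2, Col3a1 and Col5a1) had intervals above every mouse of the next type, which for Col5a1 (7 UMIs) no longer held without mouse 30. Col5a2, Col5a3 and Col27a1 were below the mean of another type (24.1 CPM against 68.4 in tanycytes, 24.1 against 61.2 in ependymal cells and 8.04 against 135 in microglia), and the other 4 had no UMI in these cells. For Col5a3 (3 UMIs) this turned without mouse 30, at 74.6 CPM, while without mouse 3 it was at 8.42 CPM. Col1a2, a chain of type I collagen, reached 1182 CPM (interval 999 to 1389, UMIs in 51 of 68 cells), against 34.2 CPM in the next type, the endothelial label. Its partner Col1a1 reached 523 CPM (403 to 666) against 14.9 CPM in astrocytes, and Col3a1, the chain of type III collagen, 442 CPM (333 to 576) against 5.92 CPM in the endothelial label. Col6a1, of the beaded type VI collagen, was at 289.5 CPM (203 to 401) against 1.76 CPM in ependymal cells. All 4 were seen in each mouse: Col1a2 had 11, 31, 89 and 16 UMIs and Col3a1 4, 15, 29 and 7.

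The 250 bases before Col3a1 (chr1:45311288-45311537, plus strand) are shown as those of the fibrillar collagen with the highest ratio to the next type among these.

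Col3a1: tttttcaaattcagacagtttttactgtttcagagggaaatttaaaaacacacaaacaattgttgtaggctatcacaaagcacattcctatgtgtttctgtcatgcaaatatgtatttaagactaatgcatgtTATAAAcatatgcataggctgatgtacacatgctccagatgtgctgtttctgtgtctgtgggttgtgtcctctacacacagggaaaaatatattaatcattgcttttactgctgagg

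Its TATA box begins 117 bases before the start, and the window holds no GC box and 0 CpG dinucleotides, against 15 in the Adamts1 window.

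The VLMC levels of Lamb2, Lamc1, Col4a1 and Col4a2 were nearer to those of the endothelial label. Lamb2 was at 241 CPM (163 to 344), Lamc1 at 161 CPM (98.2 to 248) and Nid1 at 201 CPM (130 to 297), while Col4a1 was at 88.5 CPM (44.2 to 158) and Col4a2 at 80.4 CPM (38.6 to 148), both below the endothelial means of 166 and 200.2 CPM. Without mouse 30, Col4a1 was at 149 CPM, within the range of the endothelial sums. Lama5 had no UMI in these cells (0 CPM, interval up to 29.7). The other type IV chains Col4a5 (80.4 CPM, 38.6 to 148) and Col4a6 (56.3 CPM, 22.6 to 116) had lower bounds above every mouse of tanycytes, their next type. For both, that was lost without mouse 4 or mouse 30. Timp3, the most abundant member, was at 1367 CPM (1169 to 1589). The lower bound of the interval was above every mouse of the next type for 18 members, where this held for 1.72% of genes with UMIs. Without mouse 30 it held for 11, of which 8 were among the 18, and Nid1, Col5a1 and Col18a1 (also lost without mouse 3) were not. The 18 included Col1a1, Col1a2, Col3a1, Col6a1, Nid1, Lamb1 (80.4 CPM against 12.9), Fbln2 (113 CPM against 14.9), Col15a1 (129 CPM against 7.96) and Col18a1 (64.3 CPM against 13.2). Members named outside the rule for named genes, such as Fbln2, Col5a1 and Col15a1, were chosen after their values were seen.

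The pooled values leaned on mouse 30, which gave 44 of the 68 cells. Timp1 had 22 UMIs, all from mouse 30, and Fbln1 had 32, of which 30 came from mouse 30. Without it Timp1 was at 0 and Fbln1 at 49.8 CPM in place of 257 CPM. Col15a1, a multiplexin, had 6, 9, 0 and 1 UMIs and rose from 129 to 398 CPM when mouse 30 was left out, but was at 84.2 CPM without mouse 3 and 68.4 CPM without mouse 4. Lamb1 moved from 80.4 to 149 CPM without mouse 30 and to 48.9 CPM without mouse 4, where its interval no longer cleared the next type, and Fbln2 from 113 to 224 CPM without mouse 30. Col1a1 rose from 523 to 970 CPM in the same step, and fell to 352 CPM without mouse 4, and Adamts1 (0, 7, 30 and 0 UMIs) moved from 297.5 to 174 CPM without mouse 30. The pooled cells read 2461 CPM of mural markers and 6328 CPM of VLMC markers. The part of mural cells in these levels was not tested.

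**Figure D3:**
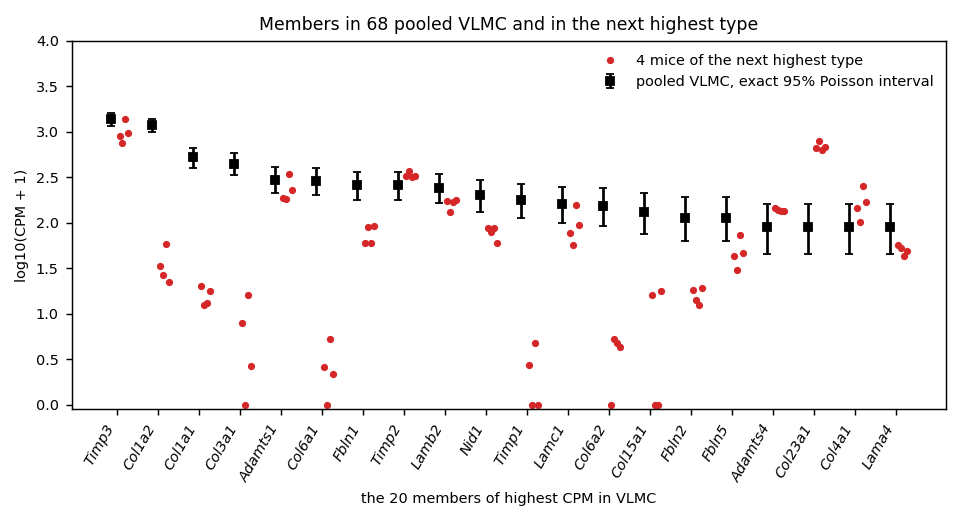
CPM of members in the pooled VLMC (point with its exact 95% Poisson interval) beside the 4 mice of the highest other cell type, on a log10(CPM + 1) axis. The intervals of Col1a2, Col1a1, Col3a1 and Col6a1 lie above every mouse of the other type, while those of Timp3 and Adamts1 overlap it.

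Tanycytes and ependymal cells both line the third ventricle, tanycytes at its floor and lower walls with a process that reaches into the tissue, ependymal cells with beating cilia. Their matrix genes differed widely. Tanycytes were marked by the transmembrane collagens Col23a1 and Col25a1, ependymal cells by Col8a2, Fbln7, Adamts20 and Fbln1. Of the 35 tested members, 8 were called higher and 8 lower in tanycytes than in ependymal cells, where 6.48% and 12.6% of genes were. Against astrocytes 8 were higher (10.6% of genes) and 12 lower (10.3%). The median log2 fold changes of the members were -0.08 and -0.33, and those of all genes 0.00 and 0.00. Both comparisons share the tanycyte sums.

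Col23a1, a collagen anchored in the plasma membrane whose ectodomain can be shed, was the most abundant member of tanycytes, at 667.5, 794.0, 625.7 and 680.2 CPM. It read 40.4, 31.8, 27.4 and 45.7 CPM in ependymal cells and 28.6, 65.5, 106 and 23.5 CPM in astrocytes. The groups lay far apart in every mouse, with log2 fold changes of 4.18 (SE 0.20, edgeR adjusted p = 8.66e-29) and 4.01 (SE 0.17, edgeR adjusted p = 2.89e-32). Its upstream window (chr11:51289670-51289919, plus strand) is shown as that of the most abundant tanycyte member.

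Col23a1: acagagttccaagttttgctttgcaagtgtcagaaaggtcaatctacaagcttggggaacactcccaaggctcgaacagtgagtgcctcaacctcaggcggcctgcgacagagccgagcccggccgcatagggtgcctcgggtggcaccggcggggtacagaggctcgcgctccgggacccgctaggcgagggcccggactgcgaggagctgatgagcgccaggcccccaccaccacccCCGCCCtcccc

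Its only match is a GC box on the opposite strand that begins 11 bases before the start, and it holds 18 CpG dinucleotides. The level of Col23a1 outside tanycytes moved with tanycyte markers in some types and not in others. In astrocytes both were highest in mouse 30 (106 CPM, with 102 CPM of tanycyte markers, against between 38.5 and 43.7 CPM in the others), and in oligodendrocyte precursor cells both were highest in mouse 4 (86.1 CPM of Col23a1, with 156 CPM of markers, against between 48.2 and 67.9 CPM). In ependymal cells and oligodendrocytes, Col23a1 was instead lowest in mouse 30 (27.4 and 6.17 CPM), where these markers were highest (131 and 61.7 CPM). Their part in the level was not tested.

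Col25a1, a related transmembrane collagen, read 53.1, 94.1, 101 and 57.7 CPM in tanycytes, against 5.69 CPM in ependymal cells (log2 fold change 3.75, SE 0.34) and 5.34 CPM in astrocytes (3.82, SE 0.27). Both tested transmembrane collagens were thus higher in tanycytes than in either neighbour, and the summed level of the 3 listed was 770 ± 79.1 CPM, against at most 61.4 CPM on average in the other 7 types with sums. Fibrillar Col5a2 (68.4 ± 9.75 CPM) and Col11a1 (32.1 ± 6.05 CPM) were also higher in tanycytes than in ependymal cells (1.51 and 3.50) and astrocytes (1.27 and 1.92). Col4a5, a type IV chain outside the main trimer, was at 26.9 ± 5.30 CPM, higher than in ependymal cells (1.59), as was the microfibril-binding Adamts10 (14.1 against 1.203 CPM, 2.94). Col9a3 (1.09) and Col16a1 (1.24) were called higher than in ependymal cells too, but Col9a3 lost its call without mouse 30 or 34 and Col16a1 without mouse 3 or 34. Timp2, an inhibitor that also helps to activate Mmp2, was at 326, 366, 315 and 324 CPM, higher than in astrocytes (60.7 CPM, 2.45, SE 0.11) and overlapping with ependymal cells. Adamts1 read 11.3, 42.0, 26.3 and 43.1 CPM in tanycytes, above astrocytes in every mouse (2.63), a call lost in thinned sums (1.81, edgeR adjusted p = 0.28).

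Ependymal cells had the opposite profile. Adamts20, a large secreted protease of the versican-cutting family, read 120, 167.5, 135 and 132 CPM in ependymal cells and 4.03 CPM in tanycytes (log2 fold change -5.08, SE 0.23, edgeR adjusted p = 6.12e-28), with 24.1 ± 0.772 CPM in astrocytes. Col8a2, a short-chain collagen that forms hexagonal lattices such as that of the cornea, read 100, 156, 139 and 145.5 CPM against 1.76 CPM (-6.16, SE 0.31). Fbln7, a fibulin, read 38.8, 83.7, 48.5 and 60.1 CPM against 0.403 CPM (-6.24, SE 0.47). All 3 were higher in every ependymal sum than in any mouse of every other type with sums. The upstream window of Adamts20 (chr15:94404351-94404600, minus strand) is shown for the ependymal profile.

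Adamts20: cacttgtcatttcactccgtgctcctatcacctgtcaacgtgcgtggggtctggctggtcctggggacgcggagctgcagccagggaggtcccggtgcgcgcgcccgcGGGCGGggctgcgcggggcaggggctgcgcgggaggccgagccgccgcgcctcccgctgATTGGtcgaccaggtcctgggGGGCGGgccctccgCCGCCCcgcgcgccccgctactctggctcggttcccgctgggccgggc

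It holds GC boxes 142, 62 and 48 bases before the start (the last on the opposite strand), a CCAAT box 83 bases before it on the opposite strand, and 32 CpG dinucleotides, the most of the windows shown.

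Fbln1, a fibulin of basement membranes and elastic fibres, read 58.2, 89.5, 59.1 and 91.4 CPM in ependymal cells and 9.69 CPM in tanycytes (log2 fold change -2.90, SE 0.26). Fibrillar Col5a3 was at 61.2 ± 14.7 against 5.98 CPM (-3.39), and Timp4 at 158 ± 24.6 against 65.4 ± 13.9 CPM (-1.22). The main type IV chains were also higher in ependymal cells, Col4a1 at 35.6 against 12.6 CPM (-1.38) and Col4a2 at 18.8 against 7.17 CPM (-1.32). The Col4a2 call was lost without mouse 34 (-1.06, edgeR adjusted p = 0.070) and without cells holding UMIs of another vascular type (-0.96, edgeR adjusted p = 0.071). Col6a5 was almost confined to ependymal cells and uneven between mice, at 16.2, 0, 29.5 and 48.1 CPM, against at most 1.64 CPM in any mouse of the other 7 types with sums. It is named after its values were seen and was not tested. The laminins did not separate these types: none of the 6 tested chains was called, and Lamb2 was at 104 ± 13.99 CPM in ependymal cells and 99.98 ± 9.85 CPM in tanycytes.

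Set against astrocytes, tanycytes had less of the inhibitors Timp3 (274 ± 42.9 against 653 ± 46.1 CPM, log2 fold change -1.29, SE 0.10) and Timp4 (65.4 against 306 CPM, -2.27, SE 0.12). Lama2 (2.80 against 28.5 CPM, -3.45) and Fbln5 (5.16 against 47.3 CPM, -3.30) had the largest differences in this direction, followed by Adamts20 (-2.68) and Col9a2 (-2.62). Lama2 was the only laminin chain of the 6 tested that was called. Col8a2, at 1.76 CPM in tanycytes, was called on 9 UMIs there and 1 in astrocytes and lost the call without mouse 3 or mouse 4. Nid1 lost it without mouse 34, Col27a1 without mouse 4 and Fbln1 without mouse 3.

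**Figure D4:**
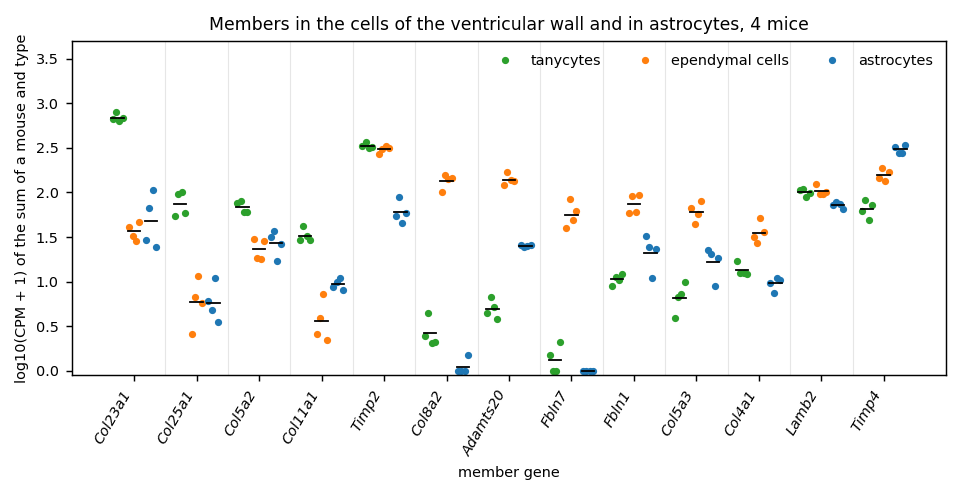
CPM of members per mouse in tanycytes, ependymal cells and astrocytes, on a log10(CPM + 1) axis. Points are the 4 mice and the black line their mean on that scale. Col23a1 and Col25a1 are highest in tanycytes and Col8a2, Fbln7 and Adamts20 in ependymal cells, with no overlap between these types.

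Of the 32 tested genes of the other matrix lists, 3 were higher and 10 lower in tanycytes than in ependymal cells (6.48% and 12.6% of all genes), and 4 were higher and 10 lower than in astrocytes (10.6% and 10.3%). The collagen-binding integrin chain Itga1 was higher against both (4.04 and 1.23). Itga6, a laminin-binding integrin chain, was higher than in ependymal cells (1.31) and lower than in astrocytes (-2.45). Hspg2 (-3.18) and Ddr1 (-2.22) were lower than in ependymal cells, and Smoc1 (-2.61), Mmp14 (-1.46) and Sparc (-1.62) lower than in astrocytes. In tanycytes mouse 4 had the highest level of 13 of the 30 members with at least 20 UMIs, where 29.4% of all such genes were highest in that mouse.

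The third set of comparisons followed the oligodendrocyte lineage, from oligodendrocyte precursor cells through committed precursors, the stage that has left division and begun to differentiate, to oligodendrocytes. Col9a1, Col9a3, Col11a2, Fbn2 and Timp4 were high in committed precursors and lower in oligodendrocytes, while Adamts4 was low in precursor cells and high in both later stages. From precursor cells to committed precursors, 7 of the 35 tested members were called higher in the precursor cells and 4 lower, where 12.8% and 8.13% of genes were. Between committed precursors and oligodendrocytes, 10 were higher in the committed precursors (9.93% of genes) and 5 lower (12.9%). The median log2 fold change was 0.69 over the tested members and 0.05 over all genes in the first comparison, and -0.31 and -0.14 in the second. Both share the committed precursor sums. The authors' labels and these sums do not give a time course, so the order of stages is that of the labels.

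Col9a3, a fibril-associated collagen best known from cartilage, read 59.1, 53.3, 29.7 and 64.2 CPM in precursor cells, 339, 353, 163 and 297 CPM in committed precursors, then 21.99, 27.5, 14.4 and 26.0 CPM in oligodendrocytes. The committed precursors lay above both neighbours in every mouse, with log2 differences of 2.60 (SE 0.17, edgeR adjusted p = 1.51e-21) and 3.35 (SE 0.15, edgeR adjusted p = 6.54e-31). Its partner chain Col9a1 read 15.9 ± 6.53, 39.5 ± 6.39 and 1.88 CPM in the same order. It was higher in committed precursors than in oligodendrocytes (3.60), while the difference from precursor cells (1.32) lost its call without mouse 3, 4 or 30. Col11a2, a chain of fibrillar type XI collagen, read 123, 77.9, 76.4 and 128 CPM in precursor cells, 189, 170, 153 and 188 CPM in committed precursors, then 13.7 ± 3.25 CPM in oligodendrocytes. It stood 3.42 (SE 0.20) above oligodendrocytes on the log2 scale, and 0.87 above precursor cells, under the limit for a call. Its upstream window (chr17:34038888-34039137, plus strand) is shown for this stage.

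Col11a2: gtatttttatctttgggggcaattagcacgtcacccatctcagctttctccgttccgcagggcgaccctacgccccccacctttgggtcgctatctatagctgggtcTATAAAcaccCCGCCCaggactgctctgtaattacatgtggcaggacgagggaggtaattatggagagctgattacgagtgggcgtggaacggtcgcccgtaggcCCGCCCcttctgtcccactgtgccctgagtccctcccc

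It holds GC boxes on the opposite strand that begin 133 and 38 bases before the start, a TATA box 143 bases before it and 14 CpG dinucleotides.

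Fbn2, the fibrillin of developing microfibrils, read 76.2, 67.9, 57.4 and 112 CPM in committed precursors, against 27.01 ± 5.45 CPM in precursor cells (log2 difference 1.66, SE 0.32) and 6.28 CPM in oligodendrocytes (3.31, SE 0.32). The fibrillar collagen Col27a1 was at 92.7 ± 31.9 CPM in precursor cells, 65.9 ± 17.5 CPM in committed precursors and only 6.21 CPM in oligodendrocytes (3.21 for the last step). It also had its highest level in microglia, at 157, 156, 91.3 and 135 CPM, which overlapped with precursor cells. Timp4 read 155, 180, 242 and 193 CPM in precursor cells, 273, 302, 402 and 366 CPM in committed precursors, then 54.5 ± 3.23 CPM in oligodendrocytes (log2 difference 2.22, SE 0.15, for the last step). Lamc1 was the main laminin of this lineage, at 40.0 ± 16.6, 60.8 ± 11.9 and 17.5 ± 4.83 CPM (1.39 for the last step). Col20a1, named after its values were seen, was highest in committed precursors too (16.1, 16.98, 14.4 and 47.1 CPM) but was not tested.

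Adamts4, a protease that cuts aggrecan and brevican, had the largest difference between the precursor stages among members with UMIs in both. It read 4.40 CPM on average in precursor cells and 142, 136, 134.0 and 134.0 CPM in committed precursors (log2 difference 4.85, SE 0.37, edgeR adjusted p = 2.22e-18), and 113, 99.4, 90.5 and 115 CPM in oligodendrocytes. Every committed precursor CPM was above every oligodendrocyte CPM, but on the TMM scale of the fit the log2 fold change between these stages was 0.01 (SE 0.17, edgeR adjusted p = 0.967). Adamts20 and Adamts1 were lower at the committed stage than in oligodendrocytes. Adamts20 had 0 UMIs there, against 12 in precursor cells and 61 in oligodendrocytes, at least 3.73-fold and at least 4.55-fold lower (bounds from 3 counts over the group). Adamts1 was at 3.51 CPM there and at 22.7 ± 10.1 CPM in oligodendrocytes (-3.35, SE 0.74).

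Precursor cells were set apart by Col5a3 (35.0, 45.1, 29.7 and 50.5 CPM against 1.41 CPM in committed precursors, log2 fold change 4.39, SE 0.66) and Col11a1 (43.8, 36.9, 21.2 and 48.2 CPM against 10.2 CPM, 1.91, SE 0.45), both fibrillar. They also held the laminin chain Lama4 at 21.0 ± 6.01 CPM and Col16a1 at 43.0 ± 15.4 CPM. Col16a1 is fibril-associated. Timp3 (296 ± 38.0 CPM) and Timp2 (137 ± 26.4 CPM) were among their most abundant members. Oligodendrocytes held few members at high levels. Timp2 was at 122.5, 125, 148 and 128 CPM, higher than in committed precursors (65.0 ± 13.4 CPM, log2 fold change -1.34 for committed precursors against oligodendrocytes, SE 0.17), and Lama2 at 8.74 CPM, where committed precursors had 0 UMIs, at least 3.66-fold lower. Lama4 (committed precursors 9.26 CPM, oligodendrocytes 0.615 CPM) went the other way (3.13).

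The first of these comparisons leaned on single mice. Without mouse 3 it called 5 members in place of 11, and the calls of Adamts10, Adamts20, Col4a5, Col23a1, Col4a2 and Col9a1 were lost. Col4a2 rested on 10 and 1 UMIs and lost its call also without mouse 4 or 34, Col23a1 lost its call without mouse 4 in this comparison and without mouse 3, 4 or 34 in that with oligodendrocytes, and Col11a1 lost its call against oligodendrocytes without mouse 34.

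**Figure D5:**
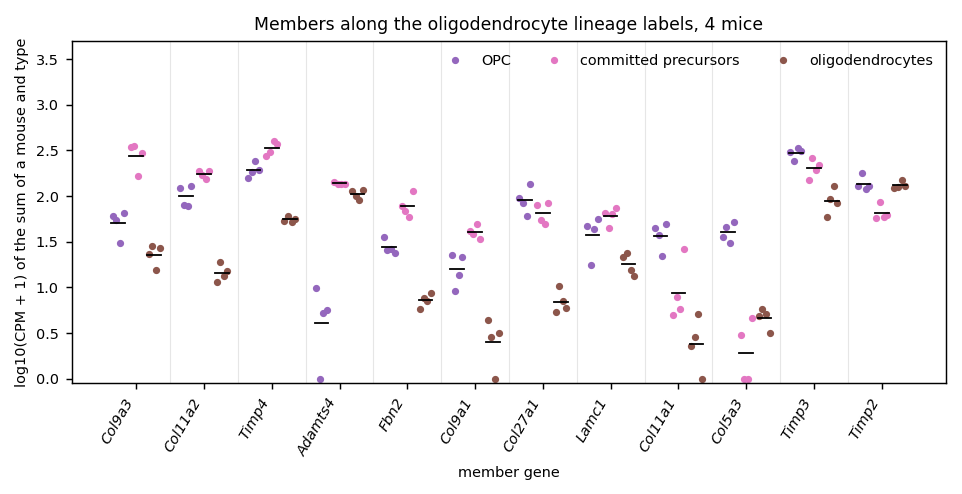
CPM of members per mouse in oligodendrocyte precursor cells, committed precursors and oligodendrocytes, on a log10(CPM + 1) axis. Points are the 4 mice and the black line their mean on that scale. Col9a3 peaks in committed precursors, Adamts4 is near 0 in precursor cells and high in both later stages, and Col5a3 is high in precursor cells.

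Of the 32 tested genes of the other matrix lists, 5 were higher and 2 lower in precursor cells than in committed precursors, near the shares of all genes (12.8% and 8.13%), and 7 were higher and 6 lower in committed precursors than in oligodendrocytes (9.93% and 12.9% of all genes). The membrane-type matrix metalloproteases Mmp16 (log2 fold change 4.50), Mmp15 (3.90) and Mmp14 (2.60) were higher in precursor cells, as were Ntn1 (3.19) and Smoc1 (2.52). The collagen lysyl hydroxylase Plod2 was higher in committed precursors than in precursor cells (-2.12) and oligodendrocytes (4.06). The gelatinase Mmp2 was higher in committed precursors than in oligodendrocytes (3.34), while the laminin-binding integrin chain Itgb4 (-6.30) and Ddr1 (-1.79) were higher in oligodendrocytes.

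Astrocytes and microglia complete the picture by type. Astrocytes held 22 members at 10 CPM or more but only Timp3 and Timp4 at 100 CPM or more. Their Lamb2 varied little between mice, at 70.7, 77.1, 74.0 and 63.5 CPM, and Lama2 read 39.9, 25.7, 20.01 and 28.5 CPM. Microglia, with between 34 and 128 cells per mouse, held 11 members at 10 CPM or more, led by Adamts1 and Col27a1, with Timp3 at 130 ± 13.4 CPM and Timp2 at 123 ± 32.6 CPM. In oligodendrocytes mouse 4 had the highest level of 11 of the 21 members with at least 20 UMIs (27.2% of all such genes).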

How the data were processed

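Hypothalamic cells of 4 ob/ob mice given FGF1 R50E were analysed from a table of 70323 cells, of which 20151 carried the names of labelled samples. The other 12 libraries of the table are not among the labelled samples and were not used. The members and the gene lists were chosen with earlier results of these data known.

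The values were deposited as raw UMI counts per gene and cell, with cells filtered and cell types labelled by the authors. The doublet score was deposited as a fraction and the mitochondrial share as a percent by the authors, and both only describe cells or drop them in an alternative. The submitters' processing notes name Cell Ranger 1.2, Seurat and the builds GRCm38, mm10 and GRCh38, without their roles. How types and doublets were called is not given in the sources used here.

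UMI counts were summed per mouse and type where every mouse had 20 cells of the type. Sums of 8 types (32 in all) were fitted in R 4.3.3 by quasi-likelihood with edgeR 4.0.16 (F test, mouse as a block, TMM, filterByExpr, Benjamini-Hochberg over the 10166 genes tested). Calls needed an adjusted p under 0.05 together with a log2 fold change beyond 1 or -1. With mouse as a block, all p-values measure the spread over these 4 mice that the block leaves, estimated over all 8 types. The mice are separate animals per the labels. Types of a pair come from the same animals, and deviations of same-mouse sums from the type means correlated at between 0.176 and 0.552 over 2280 genes, so mouse was kept as a block. VLMC were pooled. No other doublet filter was used.

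Named members were a fixed panel, the 3 highest of each type, the 4 called members with the largest change in each direction of a comparison, the 10 highest in VLMC and the 2 most variable of each type at 50 CPM or more. Members named outside this rule (Col4a6, Col5a1, Col5a2, Col6a3, Col6a5, Col12a1, Col15a1, Col20a1, Fbln2, Fbn1, Adamts9 and Col4a3bp) were chosen after their values were seen. Promoter sequences are from RefSeq, assembly GRCm38.p6. Alternatives were RLE factors, DESeq2 1.42.0, no filter, no block, a fit on 2 types, no fold limit, thinned sums, leaving out each mouse, the 10% of cells with the highest doublet score, or cells with UMIs of another vascular type, and leaving out VLMC or Col4a3bp.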

Additional observations from a re-analysis of the deposited data

Results flagged for a closer look

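Of 68 levels of members (4 mice each) screened for a mouse apart from the other mice, 2 had a gap above Dixon's 95% critical value, where chance flags about 5% of such groups. Col20a1, a fibril-associated collagen, was at 47.1 CPM in the committed precursors of mouse 34 and between 14.4 and 16.98 CPM in the other mice. Timp2 was at 176 CPM in the oligodendrocyte precursor cells of mouse 4 and between 119 and 127 CPM in the other mice. The tanycyte markers of those cells were also highest in mouse 4, at 156 CPM against between 48.2 and 67.9 CPM, and their part in the level of Timp2 was not tested.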

How the results depend on the processing

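Of 950 alternative values for the 81 called fold changes of named members, 885 kept direction and call, 64 kept direction and lost the call, and 1 reversed: Col27a1 in the endothelial label against astrocytes, at 1.49 in the fit used and -5.01 (edgeR adjusted p = 0.143) without cells holding UMIs of another vascular type. That step kept 362 of the 1266 endothelial cells, tested 29 members in place of 35 and called 15 in place of 23. Of the 885 values, 31 moved the fold by over 1.5 times. The 950 and the 885 include 81 values with no fold limit, which repeat the fit used and could not lose a call. Fold changes without a value in an alternative are not among the 950: thinned sums gave 29 of the 81 and fits on 2 types 55. Thinning sums to equal totals left 12 members testable and called 6 (endothelial label against astrocytes), 4 (tanycytes against ependymal cells), 4 (tanycytes against astrocytes), 3 (precursor cells against committed precursors) and 6 (committed precursors against oligodendrocytes), in place of 23, 16, 20, 11 and 15. Fits on 2 types alone tested fewer members and called 4 and 8 in the last 2. Without the filter on low counts, 27 members were called between tanycytes and ependymal cells, and 21 were higher in the endothelial label than in astrocytes. Leaving out each mouse gave between 20 and 24, 13 and 17, 17 and 21, 5 and 13, and 13 and 17 calls in the same order, and 19 named fold changes lost their call without some mouse. The 19 do not include Col9a2, which had a value in only 1 of the 4 fits that left out a mouse. Without the replicate block that pairs types by mouse, the counts were 23, 15, 20, 9 and 14, and 4 named calls were lost: Col16a1 in tanycytes against ependymal cells (adjusted p = 0.055), Col23a1 in committed precursors against oligodendrocytes (0.082) and in precursor cells against committed precursors (0.061), and Col4a2 in the latter (0.061). The pooled VLMC level of all members ranged from 7254 to 8782 CPM when a mouse was left out. Without VLMC, 26 members were highest in the endothelial label (12.8% of all genes), 11 in ependymal cells, 11 in committed precursors and 9 in tanycytes. Precursor cells had 8, microglia 4, astrocytes 3 and oligodendrocytes 1. Shares over all genes were not taken for these other types, nor for the counts of calls in the alternatives. Depth limits the low members: 45 of 80 were not tested. The median log2 fold change of all genes shifted by over 0.1 in 4 alternatives: by -0.17 without cells holding UMIs of another vascular type (endothelial label against astrocytes), by 0.15 in the thinned sums of committed precursors against oligodendrocytes, and between precursor cells and committed precursors by 0.12 in the thinned sums and 0.11 in the fit on 2 types.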

Other observations

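Further members at low levels had their own distribution over the cell types. They were chosen after their values were seen and did not pass the filter on low counts, so none was tested. Col4a6, the type IV chain that assembles with Col4a5, was highest in tanycytes among the types with sums (16.3 ± 5.08 CPM), as Col4a5 was (26.9 ± 5.30 CPM). Col6a3, a chain of beaded type VI collagen, was also highest there, at 24.1, 15.9, 11.6 and 18.5 CPM in mice 3, 4, 30 and 34. Among the types with sums, fibril-associated Col12a1 was highest in ependymal cells, at 6.47, 8.66, 27.4 and 15.6 CPM. In the pooled VLMC Col12a1 was higher, at 64.3 CPM (interval 27.8 to 127). The protease Adamts9 read 6.85, 0, 37.9 and 9.81 CPM in the endothelial label and was highest in mouse 30, the mouse with the most VLMC marker UMIs in that label (383 CPM, against between 134 and 156 CPM).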
